A study of Mus musculus with 6 samples.

Results

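The genes described here encode the extracellular matrix, the integrin receptors that bind it and the proteases that cut it, measured in the embryonic pancreas. They were taken as the probes with a single gene symbol of the families Col, Lam, Fbn, Fbln, Fn1, Sparc, Spp1, Nid, Hspg2, Mmp, Timp, Adamts, Lox, Itga, Itgb, Dcn, Lum, Bgn, Postn, Tnc, Thbs, Gpc and Sdc in the platform annotation. This gave 55 of the 11023 genes so annotated, on 80 of 21888 probes. Values on at least 4 of 6 arrays, the minimum for a test, were there for 79 probes of 54 genes. The remaining probe, of Adamtsl3, had 3 values, at -0.11, 0.68 and 0.64 on arrays 1, 2 and 5, and 1 value at the file's ceiling, so it was not tested. Several symbols came in through their name only: Loxhd1 is a protein of hair cells and no lysyl oxidase, and Itgb1bp1, Itgb1bp2 and Itgb3bp are named for binding integrin tails. Genes of these families without such a probe are not analysed here.

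The tested RNA came from pancreases of embryos homozygous for the Sox4 knock-out, and the RNA it was set against from wild-type littermates, both at embryonic day 12.5. All 6 spotted arrays carried knockout RNA in channel 2 and wild-type RNA in channel 1. Pancreases had been pooled into 2 groups when RNA was made, as the text with arrays 1 and 2 says. One pool of each genotype could thus have been hybridised repeatedly, and the p-values given here measure only how arrays varied, possibly for technical reasons. The value of a probe is the log2 ratio of the channels, read as knockout over wild type. The channel order and the titles make that direction likely, but no source used here states it, nor whether dyes were swapped, so a bias of a probe between channels cannot be told apart from a difference. A ratio says nothing of the level of a gene.

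Collagens are triple-helical proteins: fibrillar types form the fibres of connective tissue, and others build the network of basement membranes together with laminins, nidogens and perlecan. Integrins are pairs of an alpha and a beta chain that anchor cells to these proteins, while syndecans and glypicans are cell-surface heparan sulfate proteoglycans that bind matrix and growth factors. In the early pancreas, matrix comes from the mesenchyme, the vessels and the epithelium itself, and branching epithelium rests on a basement membrane. In a whole organ, fewer cells of a type and less RNA per cell cannot be told apart.

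Across the tested probes of these families, 7 of 79 were past a limma adjusted p of 0.05, 6 under 0 and 1 above 0, a share of 8.86% against 5.49% of all 21247 tested probes. Under 0 the share was 7.59% against 3.53% of all probes, and above 0 it was 1.27% against 1.96%. The probes under 0 belonged to Sparc, Sparcl1, Fbln2, Col27a1, Gpc4 and Itgb3bp, and the probe above 0 to Sdc2. The median over the 79 means was -0.03, against 0.03 over all probes. At an unadjusted limma p under 0.05 stood 25 of the 79, or 31.6%, against 27.6% of all probes. Means lay under 0 for 43 probes and above 0 for 36, shares of 54.4% and 45.6% against 46.3% and 53.7% of all probes. No test of the families as a whole was made.

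Promoter sequences were available for 5 of these 7 genes. They are shown for the 4 of them that encode matrix or cell-surface proteoglycans, all past the threshold under 0. Itgb3bp was past it on the same side and is left out as a gene of a centromere protein. Each stretch is 300 bases of RefSeq's GRCm38.p6, from 250 before to 50 after the annotated start, 5′ to 3′ on the gene's strand, with matches to GGGCGG on either strand (CCGCCC on the other) in capitals.
Sparc, chr11:55420031-55420330, minus strand: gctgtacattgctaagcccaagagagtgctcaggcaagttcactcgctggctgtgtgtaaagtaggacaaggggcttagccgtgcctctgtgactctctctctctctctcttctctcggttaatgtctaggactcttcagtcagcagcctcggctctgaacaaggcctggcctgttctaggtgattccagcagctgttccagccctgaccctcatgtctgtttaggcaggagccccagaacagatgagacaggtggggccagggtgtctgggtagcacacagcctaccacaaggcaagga
Fbln2, chr6:91212514-91212813, plus strand: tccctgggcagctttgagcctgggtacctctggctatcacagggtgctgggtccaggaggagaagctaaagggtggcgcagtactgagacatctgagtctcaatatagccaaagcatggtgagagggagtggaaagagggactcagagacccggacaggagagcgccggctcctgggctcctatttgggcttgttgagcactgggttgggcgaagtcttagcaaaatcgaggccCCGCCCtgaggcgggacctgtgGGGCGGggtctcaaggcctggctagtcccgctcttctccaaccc
Col27a1, chr4:63215162-63215461, plus strand: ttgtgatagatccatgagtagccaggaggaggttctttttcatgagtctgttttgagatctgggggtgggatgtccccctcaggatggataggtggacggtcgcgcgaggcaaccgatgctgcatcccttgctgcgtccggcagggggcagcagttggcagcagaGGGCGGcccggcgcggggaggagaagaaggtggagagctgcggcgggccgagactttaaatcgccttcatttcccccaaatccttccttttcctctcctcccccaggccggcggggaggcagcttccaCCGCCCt
Gpc4, chrX:52164874-52165173, minus strand: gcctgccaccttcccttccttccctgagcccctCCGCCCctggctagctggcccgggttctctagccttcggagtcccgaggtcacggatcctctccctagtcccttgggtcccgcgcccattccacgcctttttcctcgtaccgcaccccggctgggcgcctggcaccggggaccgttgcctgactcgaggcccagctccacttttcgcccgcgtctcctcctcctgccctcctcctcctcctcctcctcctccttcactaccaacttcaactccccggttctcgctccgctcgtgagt

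The GC box letters GGGCGG had 2 matches in the Fbln2 and in the Col27a1 stretch, 1 in that of Gpc4 and 0 in that of Sparc, while 35.7% of all 32851 promoter stretches held them. The letters ACAAAG, a core bound by Sox proteins, and TATAAA, of the TATA box, were searched on both strands and stood in none of these 4 stretches, against 18.7% and 13.6% of all stretches. The share of G and C was 55.3% for Sparc, 60.3% for Fbln2, 61.7% for Col27a1 and 66.7% for Gpc4, against a median of 52.7%. These are matches of letters only.

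Sparc and Sparcl1 encode matricellular glycoproteins, which bind collagen and modulate adhesion without building fibres themselves. The Sparc probe ZA-00026J22 was at -0.15, -0.33, -0.36, -0.34, -0.30 and -0.36 on arrays 1 to 6. Its mean of -0.31 ± 0.08 (SD, n = 6) is a 1.24-fold lower signal in the RNA labelled knockout, with a limma adjusted p of 0.0453. All 6 arrays were under 0, and array 1 stood closest to 0.

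The other Sparc probe, ZX-00145B08, was at -0.20, -0.09, -0.46, -0.36, -0.37 and -0.35. Its mean of -0.30 ± 0.13 (SD, n = 6) was almost the same, with a limma adjusted p of 0.0607, the smallest among the probes of these families that missed the threshold and shared with a Col9a1 probe. The 2 clones of Sparc therefore gave nearly the same size, and differed in spread.

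Sparcl1 had the smallest adjusted p of all matrix and integrin probes. It was at -0.49, -0.54, -0.55, -0.39, -0.68 and -0.66 on arrays 1 to 6, with a mean of -0.55 ± 0.11 (SD, n = 6), a 1.47-fold lower signal at a limma adjusted p of 0.022. All 6 arrays were under 0.

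Fbln2, fibulin-2, is a matrix protein that binds fibronectin and basement membrane proteins. Its probe was at -0.45, -0.47, -0.51, -0.26, -0.41 and -0.34 on arrays 1 to 6. The mean of -0.40 ± 0.09 (SD, n = 6) corresponds to a 1.32-fold lower signal, with a limma adjusted p of 0.0317 and every array under 0.

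Among the collagens, 1 of 26 tested probes was past the threshold. Col27a1, a fibrillar collagen of cartilage, had the lowest mean of all matrix and integrin probes. Its probe ZA-00028N19 was at -0.56, -0.84, -0.54, -0.50, -0.91 and -0.86, with a mean of -0.70 ± 0.19 (SD, n = 6), a 1.62-fold lower signal and a limma adjusted p of 0.0223. The other Col27a1 probe, PX-00627G03, lay on both sides of 0, from -0.10 on array 4 to 0.46 on array 2, with a mean of 0.06 ± 0.21 (SD, n = 6). Its array values overlapped nowhere with those of the first, so the 2 clones annotated to this gene disagreed.

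Gpc4, a glypican, was at -0.18, -0.32, -0.24, -0.35, -0.42 and -0.37 on arrays 1 to 6, with a mean of -0.31 ± 0.09 (SD, n = 6) and a limma adjusted p of 0.0455. That is a 1.24-fold lower signal, with every array under 0. The glypicans Gpc2 and Gpc6 lay near 0, with means of 0.10 ± 0.65 and -0.04 ± 0.14 (SD, n = 6 each), and Gpc2 ranged from -0.98 on array 6 to 0.83 on array 2.

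Sdc2, syndecan-2, had the only probe of these families past the threshold above 0. The probe PX-00617O03 was at 1.31, 0.97, 0.63, 0.36, 2.12 and 0.93, with a mean of 1.05 ± 0.62 (SD, n = 6), a 2.07-fold higher signal and a limma adjusted p of 0.0467. Its value on array 5 was a deposited log2 ratio of 2.322, that is a ratio of 5 to 1, which 33 probes shared on that array, an Itgav probe among them. The other Sdc2 probe, ZX-00135J13, was at 0.21 ± 0.14 (SD, n = 6; adjusted p 0.13), with 1 of 6 arrays under 0. Both probes were above 0 on average, and their means differed by 0.84. The call was lost, among other settings, with robust eBayes (limma adjusted p 0.0505), with the ceiling kept as a value (0.0532), with plate medians removed (0.0546), with the array set as a term (0.068) and without any 1 array (0.0703 to 0.111). It held in 8 of 22 other settings, the same count as for Itgb3bp. Without centring, Col25a1 also passed above 0, at 0.32 (adjusted p 0.0437), and with scale normalization Col14a1 did, at 0.43 (adjusted p 0.0471).

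**Figure D1:**
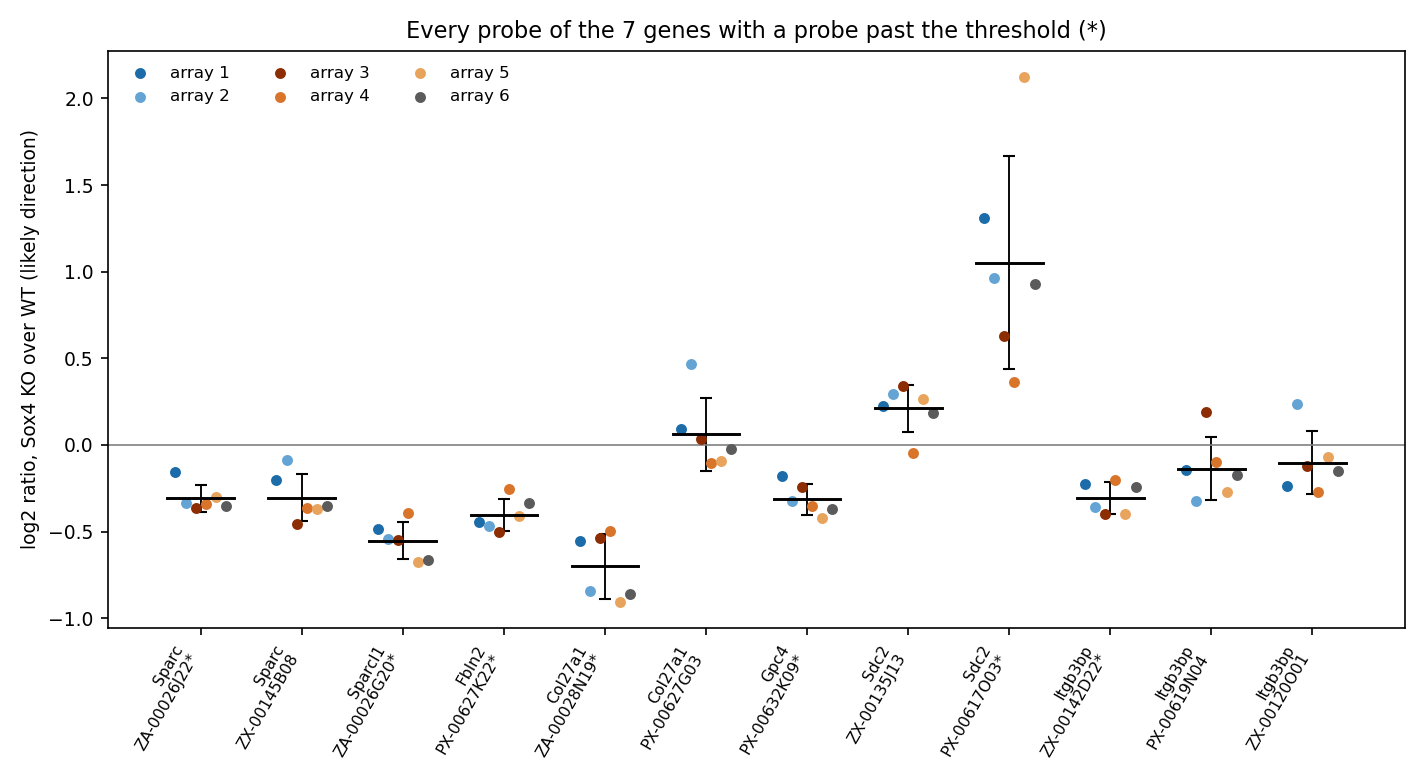
Log2 ratio (Sox4 KO over WT, the likely direction) on each of 6 arrays, in colours, for every probe of the 7 genes with a probe past the threshold, which is starred, with the mean as a bar and the SD as whiskers. The 2 Sparc probes have means of -0.31 and -0.30, while the Col27a1 probes sit apart at -0.70 and 0.06 and the Sdc2 probes at 1.05 and 0.21.

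Itgb3bp encodes a protein of the centromere, in spite of its name. One of its probes, ZX-00142D22, was at -0.22, -0.36, -0.40, -0.20, -0.40 and -0.25, with a mean of -0.31 ± 0.09 (SD, n = 6) and a limma adjusted p of 0.0476, the largest of the 7 past the threshold. Its other probes had means of -0.14 ± 0.18 and -0.10 ± 0.18 (SD, n = 6 each), each with 1 array above 0. Itgb1bp1, a regulator of integrin activation, had 4 probes, the most of any gene here, with means of -0.09, -0.07, -0.01 and 0.04, whose signs turned under some of the other settings tried. Itgb1bp2, a muscle protein, was at 0.08 ± 0.15 (SD, n = 5).

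Of the other fibrillar collagens, those of soft connective tissue had probe means from -0.14 to 0.43. Col1a2, a chain of type I collagen, was at 0.10 ± 0.12 (SD, n = 6). Col3a1 had means of -0.12, -0.09 and 0.43 at 3 probes, and the highest of them ranged from -0.28 on array 6 to 1.13 on array 2. Col5a2 was at -0.14 ± 0.16 and 0.14 ± 0.20 (SD, n = 6 each). None of these was past the threshold. Col24a1 was at 0.05 ± 0.13 (SD, n = 6).

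Col11a1 and Col9a1 had probes close to the threshold, and over all 26 collagen probes 15 means lay under 0 and 11 above. Col11a1, a partner in thin cartilage fibrils, was under 0 on all arrays, from -0.43 on array 1 to -0.10 on array 6, with a mean of -0.27 ± 0.15 (SD, n = 6; limma adjusted p 0.0889). Col9a1, which sits on the surface of those fibrils, had 2 probes with means of -0.32 and -0.31 that were under 0 on every array, at adjusted p of 0.0783 and 0.0607, and a further probe at -0.09 ± 0.16. On the probe ZX-00137G21 the Col9a1 values were -0.20, -0.11, -0.53, -0.35, -0.35 and -0.36. Col9a3 was at -0.06 ± 0.22 (SD, n = 6).

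The remaining collagens were mixed. Col6a4, of the beaded-filament type VI family, was at -0.28 ± 0.18 (SD, n = 6; adjusted p 0.097), with 5 of 6 arrays under 0, and Col16a1 was at -0.16 ± 0.19. Col25a1, a membrane collagen of neurons, was at 0.22 ± 0.11 (SD, n = 6; adjusted p 0.108) with every array above 0. Col14a1, a fibril-associated collagen, was at 0.48 ± 0.39 and 0.16 ± 0.38 (SD, n = 6 each).

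Several of these collagens varied widely between arrays. Col19a1 had the highest mean of all matrix and integrin probes, 1.42 ± 1.37 (SD, n = 5), with array values from 0.26 on array 4 to 3.66 on array 6 and an adjusted p of 0.147. Col26a1 was at 0.60 ± 0.78 (SD, n = 5), Col22a1 at -0.31 ± 0.93 (n = 5) and Col8a1 at -0.16 ± 1.37 (n = 4). Col20a1 and Col23a1 lay at -0.03 and -0.04.

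No probe of the tested laminin and nidogen genes or of Col18a1 passed. The 4 tested laminin and nidogen genes were Lamb1 at 0.28 ± 0.27, Lama2 at 0.73 ± 0.62 (n = 4), Lamb3 at 0.08 ± 0.60 and Nid2 at 0.15 ± 0.19 (SD, n = 6 where not given). Lamb1, a chain of the laminins of most basement membranes, was above 0 on all arrays, at 0.46, 0.75, 0.11, 0.24, 0.08 and 0.06, with an adjusted p of 0.16. Arrays 1 and 2 were higher than the rest for it. Col18a1, the basement membrane collagen that yields endostatin, was at 0.12 ± 0.11 (SD, n = 6; adjusted p 0.314).

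Among the integrin chains themselves, no probe was past the threshold. Itgav, the alpha chain of receptors for vitronectin and fibronectin, had 3 probes that disagreed, with means of -0.32 ± 0.18, -0.25 ± 0.25 and 0.71 ± 0.80 (SD, n = 6, 6 and 5) and adjusted p of 0.0742, 0.176 and 0.198. The lowest of them was under 0 on all 6 arrays, from -0.65 on array 2 to -0.12 on array 1. Itgb1, the beta chain shared by most matrix receptors, was at -0.14 ± 0.15 and 0.18 ± 0.19 (SD, n = 6 each), on opposite sides of 0.

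Itga6, a laminin receptor chain of epithelia, was at 0.55 ± 0.54 and 0.31 ± 0.89 (SD, n = 6 each). The first was above 0 on all arrays, from 0.14 on array 1 to 1.54 on array 5, with an adjusted p of 0.134. Itga9 was at 0.28 ± 0.21 (SD, n = 6; adjusted p 0.114), above 0 on every array, and Itga7, a laminin receptor chain of muscle, at -0.01 ± 0.45. Itgb6, an epithelial partner of Itgav, was at 0.57 ± 0.97 (n = 5) and 0.15 ± 0.63, and Itgb2l was at 0.45 ± 1.09 with 2.49 on array 3.

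**Figure D2:**
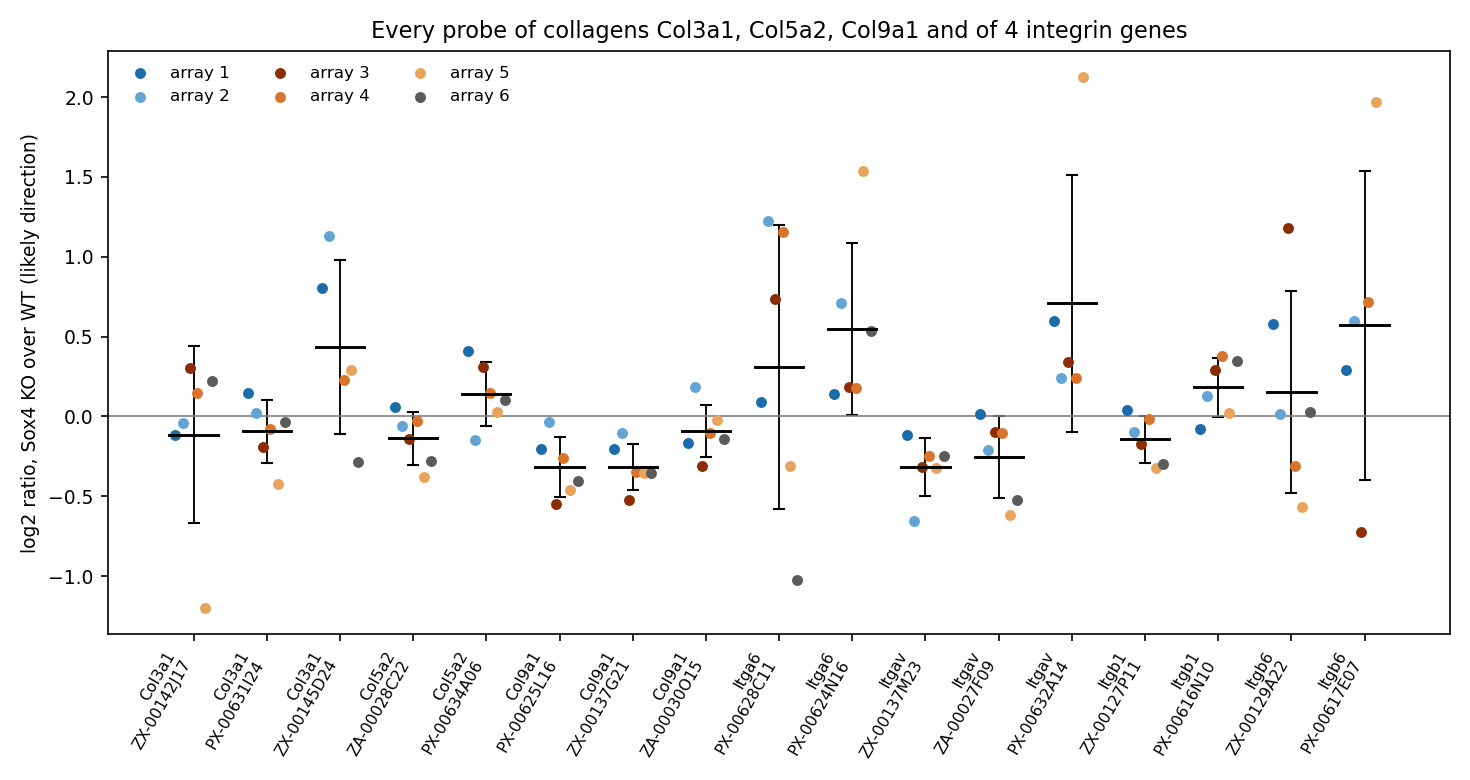
Log2 ratio (Sox4 KO over WT, the likely direction) on each of 6 arrays, in colours, for every probe of 3 collagen and 4 integrin genes, with the mean as a bar and the SD as whiskers. Of the 3 Itgav probes, those at -0.32 and -0.25 lie under 0 on average and the one at 0.71 above it, and the Itgb1 probes lie on opposite sides of 0.

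No matrix protease or crosslinking enzyme had a probe past the threshold. Mmp9, a gelatinase, was the most variable of all tested probes of these families, at -0.31 ± 2.15 (SD, n = 5), with 1.92 on array 2 and -3.84 on array 6. Mmp19 was at -0.16 ± 0.16 (adjusted p 0.255) and Mmp10 at -0.03 ± 0.44 (SD, n = 6 each). Of the secreted Adamts proteases, Adamts9 was at 0.35 ± 0.39 and 0.21 ± 0.57, Adamts5, which cuts aggrecan, at 0.30 ± 0.48, and Adamts3, a procollagen protease, at -0.08 ± 0.40 (SD, n = 6 each).

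The Adamtsl proteins, which resemble them but lack the protease domain, ranged from -0.27 ± 0.28 at an Adamtsl5 probe to 0.07 ± 0.35 for Adamtsl2. Loxl2 and Loxl4, which crosslink collagen and elastin, had means of 0.11 ± 0.16 for Loxl2 and of -0.19 ± 0.22 and 0.15 ± 0.87 for Loxl4 (SD, n = 6 each). Fbln7 was at -0.07 ± 0.27, and the 2 Loxhd1 probes were at -0.13 and -0.03. Lum, lumican, a small proteoglycan that regulates collagen fibrils, was at 1.01 ± 0.96 (n = 6; adjusted p 0.119) and 0.25 ± 0.49 (n = 4).

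**Figure D3:**
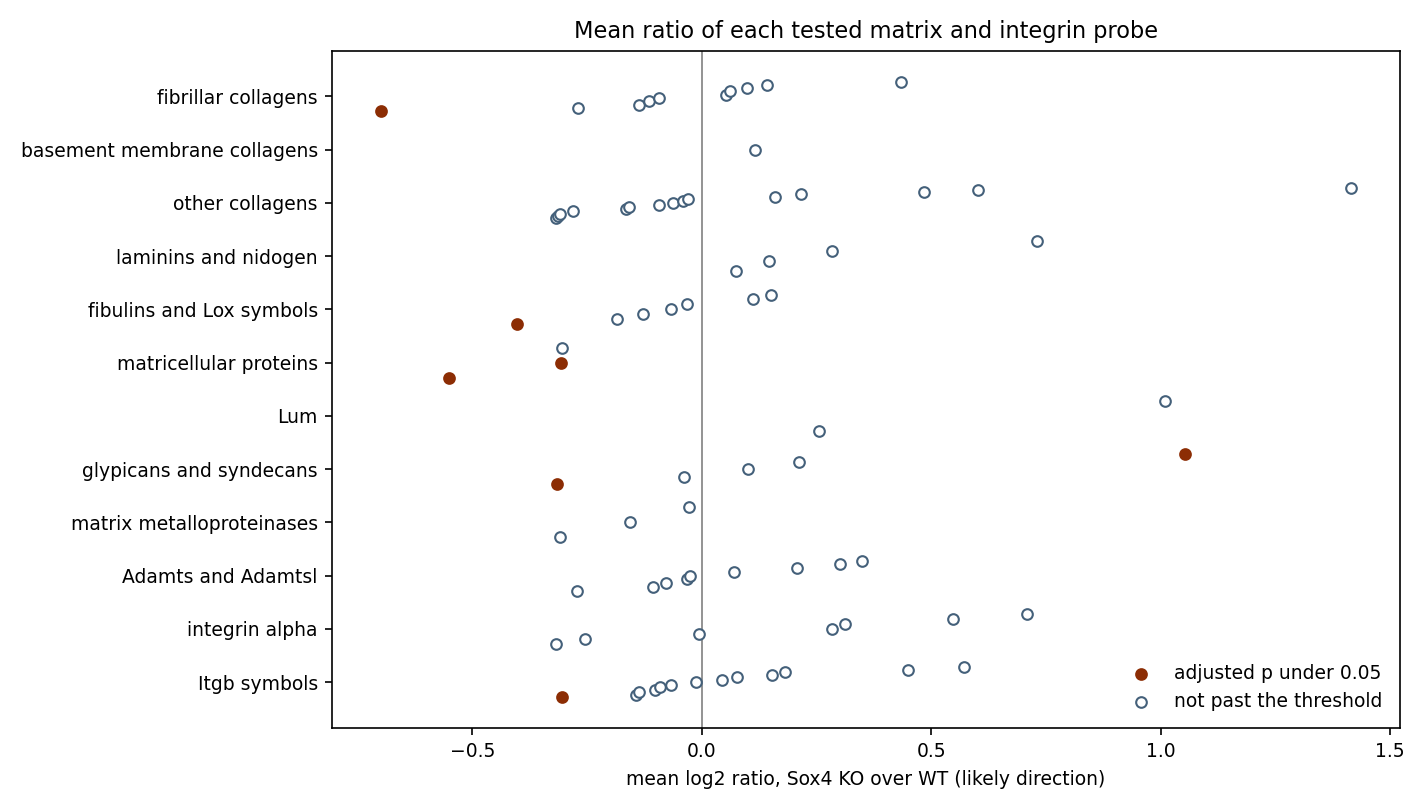
Mean log2 ratio over the arrays (Sox4 KO over WT, the likely direction) of each of the 79 tested probes, 1 circle per probe, by group of proteins, filled where the limma adjusted p is under 0.05. The 6 filled circles under 0 lie between -0.70 and -0.31, and the single one above 0, Sdc2, lies at 1.05.

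The spread over arrays had a median SD of 0.22 over the 79 probes, against 0.29 over all tested probes. The 2 probes with a mean under -0.5 had SDs of 0.11 and 0.19, while the 8 probes with a mean above 0.5 had SDs from 0.54 to 1.37. Wide spreads also occurred at smaller means under 0, as at Mmp9, Col8a1 and Col22a1. In 5 of those 8, at least 50% of the ratios were quotients of whole numbers up to 20, values that small whole-number intensities can give. Over the 79 probes, the 14 with such a share had a median mean of 0.28 and a median SD of 0.63, and 11 of them lay above 0. The other 65 had a median mean of -0.04 and a median SD of 0.20, and 40 of them lay under 0. The share was 33.3% at the Sdc2 probe past the threshold and 0% to 16.7% at the 6 probes past it under 0. The part of low signal in these means was not tested.

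**Figure D4:**
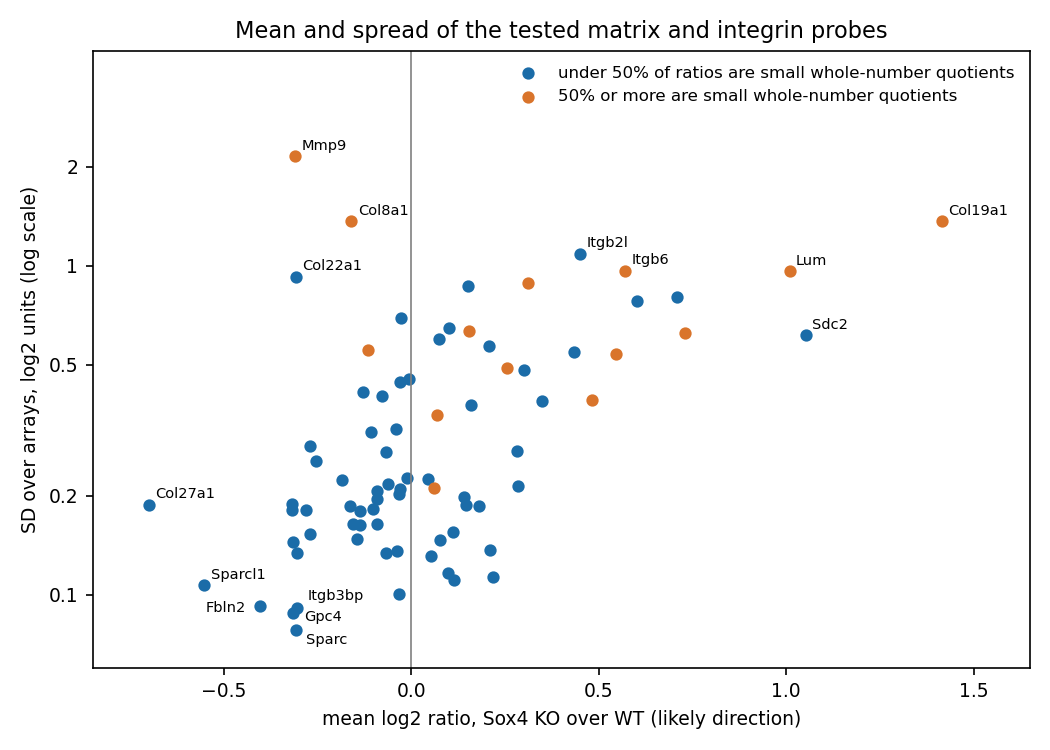
Mean log2 ratio (horizontal, Sox4 KO over WT, the likely direction) against the SD over arrays (vertical, log scale) of the 79 tested probes, coloured by whether at least 50% of a probe's ratios are quotients of whole numbers up to 20. Probes past the threshold under 0 have SDs between 0.08 and 0.19, and the probes at high means, such as Col19a1 and Lum, have SDs of 1.37 and 0.96.

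Probes for the same gene were compared where there were several. Of 18 such genes, 11 had all means on the same side of 0 and 7 on both sides, and the median gap between the highest and the lowest mean of a gene was 0.30. No share over all genes is given for these counts. The gap was over 0.5 for 5 genes, namely Itgav, Sdc2, Col27a1, Lum and Col3a1. It was 0.003 for Sparc. Every measured array was under 0 at 11 of the 79 probes and above 0 at 9, shares of 13.9% and 11.4% against 12.3% and 10.2% of all tested probes, so by this count the families lay near the background.

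Arrays 1 and 2, whose label holds the preparation text, and arrays 3 to 6 were also taken apart. Means of the 2 sets were on the same side of 0 at 51 of 79 probes, a count given without the share over all probes. Col27a1 was at -0.70 in arrays 3 to 6 and at -0.70 in arrays 1 and 2, Sparcl1 at -0.57 and -0.51 in the same order, and Fbln2 at -0.38 and -0.46. Sparc stood at -0.34 and -0.24 at the probe past the threshold and at -0.38 and -0.15 at the other, and Col9a1 at -0.42 and -0.12 at its lowest probe. The difference between the sets passed an adjusted p of 0.05 in limma at 0 of the 79 probes, where the smallest was 0.312, and at 0 of all tested probes. At an unadjusted limma p under 0.05 it passed at 6 of the 79, or 7.59%, against 15.4% of all probes with values in both sets.

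The 7 calls lie close to the threshold. Without array 2, the probes of Col27a1, Sparcl1 and Fbln2 passed, at adjusted p of 0.036, 0.0339 and 0.0421, and Sparc at ZX-00145B08 (0.0437) and Col9a1 at ZX-00137G21 (0.0476) joined them, while the other 4 did not pass. Without array 1, 3, 4, 5 or 6, 0 probes of these families passed in limma. At an unadjusted p under 0.05 were then 20 of 76, 22 of 78, 20 of 76, 25 of 78 and 21 of 77. Those shares were 26.3% to 32.1%, against 22.4% to 24.8% of all probes tested in these fits. With 1 array left out, the mean of Sparcl1 lay between -0.58 and -0.53 and that of Col27a1 between -0.74 and -0.66. Sparc at the probe past the threshold lay between -0.34 and -0.30, Fbln2 between -0.43 and -0.38 and Sdc2 between 0.84 and 1.19. A small SD over these same arrays helped the probes under 0 to pass, so their narrow ranges are no separate check.

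**Figure D5:**
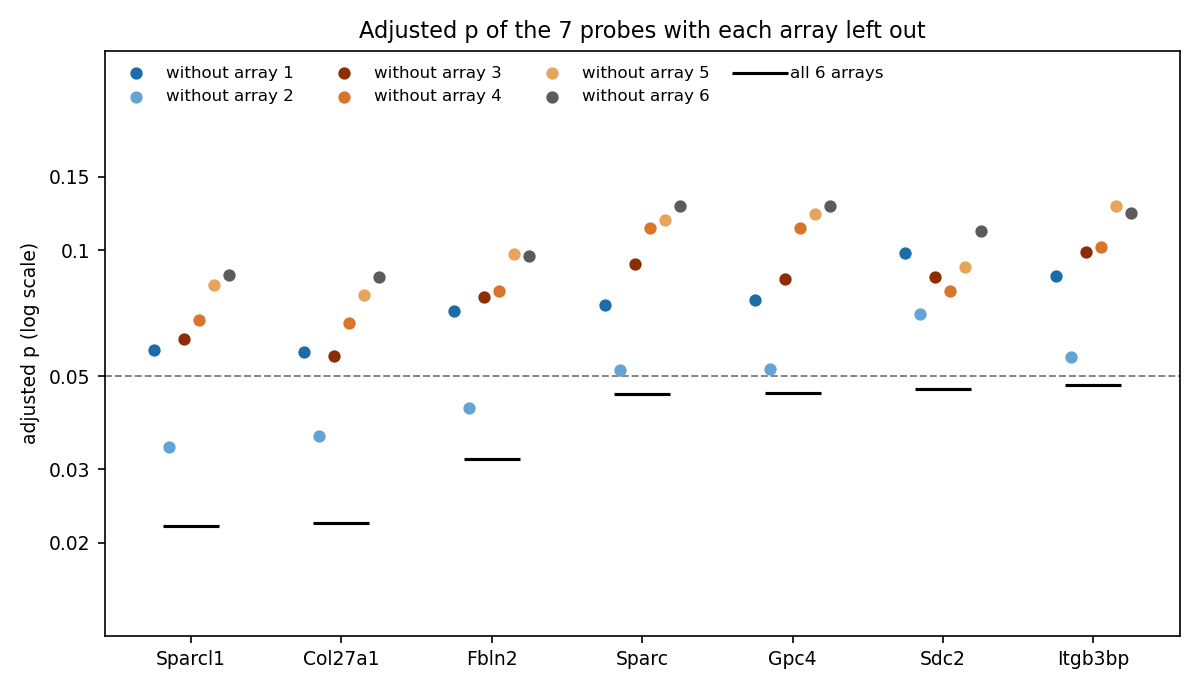
Limma adjusted p (log scale) of the 7 probes past the threshold, with all 6 arrays (black bars) and with each array left out (coloured points); the dashed line is 0.05. Points lie under the line only without array 2, for Sparcl1, Col27a1 and Fbln2.

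Other genes of matrix assembly and adhesion were taken from 5 further lists, in which a gene counts as passed if any of its probes passed. Over all tested probes 5.49% passed, and with 1 value per gene 5.72% of all genes did. Neither is the share of genes with any probe past the threshold, which is not given over all genes. In collagen processing and secretion, 10 of 21 genes were measured and 1 passed: Sec24d, a coat protein that helps procollagen leave the endoplasmic reticulum, was at -0.71 ± 0.18 (SD, n = 6; limma adjusted p 0.0207) with every array under 0. Serpinh1, the collagen chaperone, was at 0.11 ± 0.12 and 0.53 ± 1.06. In the list of elastic fibre and other matrix proteins, 15 of 31 were measured, and 1 passed on each side. Emilin1, an elastic fibre protein, was at 0.71 ± 0.26 (n = 6; adjusted p 0.03) with every array above 0, and Vtn, vitronectin, which liver also secretes, was at -0.94 ± 0.31 (adjusted p 0.0239) at one probe and -0.06 ± 0.38 at the other.

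In the list of integrin adhesion, which holds adaptors, kinases and associated receptors, 8 of 21 genes were measured. Lims1 was past the threshold at -0.61 ± 0.19 (n = 6; limma adjusted p 0.027), with its other probe at 0.34, and Parva at 1.46 ± 0.73 (n = 5; adjusted p 0.046), with its other probes at 0.18 and -0.10. Both bind integrin-linked kinase. Of 6 measured plasminogen and protease genes out of 21, Bsg, an inducer of metalloproteinases, passed at 0.96 ± 0.58 (n = 6; adjusted p 0.0495), with its other probe at -0.01. Of 7 measured TGF beta genes out of 11, Tgfbr3, a co-receptor, passed at -0.38 ± 0.15 (n = 6; adjusted p 0.0429). At the Parva and Bsg probes past the threshold, 60% and 66.7% of the ratios were quotients of whole numbers up to 20. On array 5 the Parva value, 2.12, equalled that of the Sdc2 probe past the threshold. The Parva and Bsg calls held in 6 of 19 and 5 of 21 other settings, and that of Lims1 in 13 of 22. With 1 value per gene, Vtn (limma adjusted p 0.0532) and Lims1 (0.84) did not pass, while Sec24d (0.0179), Emilin1 (0.0281) and Tgfbr3 (0.0397) did. The medians of the 5 lists were 0.15, -0.01, -0.11, -0.07 and -0.03, in the order given, against 0.03 over all probes.

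Markers of the cells that could carry these transcripts were set beside them. A gene again counts as passed if any of its probes passed, and 5.49% of all tested probes did. The share of all genes with any probe past the threshold is not given, so these counts have no like share beside them. Of 20 mesenchyme markers, 12 were measured at 22 probes and none passed in limma. Their median was -0.07, with array medians from -0.22 to 0.01. Of 16 endothelium markers, 7 were measured and none passed, with a median of -0.06 and array medians from -0.16 to 0.02. Of 13 epithelium markers, 7 were measured and none passed, with a median of 0.06. At an unadjusted limma p under 0.05, members of the first 2 lists lay on both sides of 0. For mesenchyme these were Acta2 at -0.41, Snai2 at -0.47 and Zeb1 at -0.32, against Prrx1 at 0.49 and another Zeb1 probe at 0.32. For endothelium they were Sox7 at -0.32, Esam at -0.28 and Egfl7 at -0.19, against Sox17 at 0.47 and 0.35. Other probes of Acta2 and Prrx1 were at 0.09, -0.06 and -0.12, and those of Snai2 and Zeb1 at -0.07 and -0.07.

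Leukocyte markers, with 5 of 12 measured, had Cd53 past the threshold above 0, C1qa past it under 0, and a median of -0.06. Liver genes, with 10 of 15 measured, had Afp, Ambp, Apoc1, Fgb and Fgg past the threshold under 0. Their median was -0.46, with array medians from -0.63 to -0.33. The Afp probes were at -2.05, -1.90, -2.06 and 0.006. The measured liver genes that did not pass were Apoc3 at 0.36 and -0.10, Apoh at 0.08, Hpx at 0.03, Alb at -0.29 and Ttr at -0.21 and -0.18. Pancreatic epithelium genes, 9 of 9 measured, had Cpa1 and Nr5a2 past the threshold under 0 and a median of 0.07. Others of them lay on both sides of 0 at an unadjusted limma p under 0.05. These were Nkx6-1 at 0.39 and 0.73, Ptf1a at 0.20 and Rbpj at 0.22, against Sox9 at -0.48. The part of these cell types in the ratios of Sparc, Sparcl1, Fbln2 and Vtn was not tested.

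Neither probe of Sox4 was past the threshold, with means of -0.03 ± 0.25 and -0.09 ± 0.13 (SD, n = 6 each; limma adjusted p 0.892 and 0.446). No source used here places them relative to the deleted part, so they check neither labels nor direction. Each array lacked a value at 439 to 1654 probes, and the median absolute deviation was 0.545 on array 2, against 0.27 to 0.442 on the other arrays. The source plates of the 7 probes had medians from 0.02 to 0.09, and the plates of Sparc and Sparcl1, both in ZA-00026, had 0.02.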

How the data were processed

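RNA of Sox4 knockout and wild-type pancreas was compared on 6 arrays with 2 channels, after linear amplification and indirect labelling per the labels of arrays 1 and 2. The values are log2 ratios as the authors deposited them. The base follows from the highest value, 16.61, which is the log2 of 1e+05. No source used here gives scanner, background correction, normalization, dyes, direction or centring. Signal over background is unknown. The number of arrays limits the precision. Column medians without the ceiling were -0.007, 0.076, 0.139, 0.07, 0.198 and 0.143. The ceiling was treated as missing, arrays were centred on their medians, and the 21247 probes with at least 4 values entered an intercept-only limma fit (lmFit and eBayes, limma 3.58.1, R 4.3.3). P-values were two-sided and adjusted by Benjamini-Hochberg across every tested probe, with a threshold of 0.05. No other sample column was in the table.

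Symbols came from the platform annotation, in which 18388 probes had 1 symbol, 66 several and 3434 none. All 80 probes described matched RefSeq by Entrez ID. Of 480 values, 462 were measured, 17 missing and 1 at the ceiling. Quotients were matched within 6e-04 in log2. Figures used matplotlib 3.10.9.

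The families, lists and tests were chosen with earlier results of these data known. Named genes were those with a probe past the threshold, the smallest p in each group with none, genes with 4 or more probes, the 3 furthest means on each side, list genes past the threshold (up to 4 per list) and Sox4. Other values describe the remaining probes. Genes named otherwise were chosen after their values were seen: Acta2, Prrx1, Snai2, Zeb1, Sox7, Sox17, Esam, Egfl7, Serpinh1, Cd53, C1qa and the liver and pancreatic genes.

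The fit was tested on simulated data, where it recovered 28.4% of the smallest changes set, log2 changes of 0.5, and missed the rest. Fewer probes were changed there than passed in the data described, so this share does not carry over to them. Centring, scaling, filters, array weights, sets of arrays and left-out arrays were varied, as given in the closing section.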

Additional observations from a re-analysis of the deposited data

Results flagged for a closer look

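The 79 tested probes, 9 other named probes and the array medians were searched for single arrays set off by a wide gap, compared with the range over arrays. The nominal chance rate is about 1 of 20, and no share over all tested probes is given. Such an array was found at 10 of the items searched, 9 of matrix or integrin genes and 1 of Sox4. Array 2 stood apart at Adamts3 (probe ZA-00026J08), at -0.86 against -0.15 to 0.26, at Adamtsl1, at 0.52 against -0.31 to -0.14, and at the Col27a1 probe PX-00627G03, at 0.46 against -0.10 to 0.09. Array 6 stood apart at Col22a1, at -1.94 against -0.17 to 0.30 (n = 5), and at Col23a1, at -0.69 against 0.05 to 0.12. Array 5 stood apart at the Col3a1 probe ZX-00142J17, at -1.20 against -0.12 to 0.30, and at the Itgav probe PX-00632A14, at 2.12 against 0.24 to 0.60 (n = 5). Array 3 stood apart at Itga9, at 0.71 against 0.10 to 0.25, and at the Sox4 probe MMC03H11, at -0.35 against -0.10 to 0.002. Array 1 stood apart at the Sparc probe ZA-00026J22, at -0.15 against -0.36 to -0.30.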

How the results depend on the processing

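The 7 probes past the threshold kept their signs under every setting that gave them a value, while their calls depended on the setting. Of 22 other settings, the call held in 14 for Sparcl1 and Col27a1, 12 for Fbln2, 10 for Sparc, 9 for Gpc4 and 8 for Itgb3bp and Sdc2. Without centring, Fbln2 (limma adjusted p 0.0534), Gpc4 (0.0766), Sparc (0.0831) and Itgb3bp (0.0888) were lost. Sdc2 (0.0423), Sparcl1 (0.0266) and Col27a1 (0.0265) still passed then. The count of 7, 1 above and 6 under 0, became 4 without median centring (2 above, 2 under), 11 with scale normalization, 12 with array weights, 3 on arrays 3 to 6 alone, 3 with the array set as a term, 0 on arrays 1 and 2 alone and 0 against a log2 change of 0.2 (treat). Over all probes the 1166 calls became 1786, 2402, 599, 695, 0 and 37 with scale normalization, array weights, arrays 3 to 6, the set term, arrays 1 and 2 and treat. Without centring they were 1258, with 849 above and 409 under 0 against 416 and 750, and the median of all probes was 0.13, against 0.03 with centring. With values on at least 3 of arrays 3 to 6, chosen after seeing the data as was the removal of plate medians, they were 0 and 13. Leaving out 1 array gave 0 to 5 probes of these families and 10 to 1072 of all probes, the 5 and the 1072 without array 2, and 18, 45, 11, 10 and 13 of all probes without arrays 1, 3, 4, 5 and 6. The median of -0.03 became 0.073 without centring, 0.038 on arrays 1 and 2 alone and -0.043 to 0.041 with 1 array left out, the highest without array 6. Itgb1bp1 and Sox4, never past the threshold, changed sign. Without centring Itgb1bp1 was at 0.013, 0.036 and 0.091 at 3 probes, and Sox4 at 0.078 and 0.012. On arrays 1 and 2 alone Itgb1bp1 was at 0.0078, 0.140 and -0.0052, and Sox4 at 0.125. With the set as a term Itgb1bp1 was at 0.026 and Sox4 at 0.012. Itgb1bp1 was at 0.015 with plate medians removed, at -0.0096 with array weights and at -0.031 with 1 value per gene. With 1 array left out, it ranged from -0.076 to 0.045 and from -0.018 to 0.094 at the probes that turned, and Sox4 from -0.112 to 0.040. The cause of these shifts was not tested. No paired analysis was possible because each array is already a ratio of both RNAs and all arrays form 1 group. Signal over background is unknown, so what it limits could not be given.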
